A study of Mus musculus with 30 samples.

Results

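Clock output genes carry the daily rhythm of the circadian clock from its core loop to the rest of the cell, and 8 of them were followed here in the liver of db/db mice. The members were Dbp, Tef, Hlf, Nfil3, Noct, Usp2, Bhlhe40 and Bhlhe41, taken as all 12 probes whose gene symbol is one of these, among 25697 probes for 16593 named genes on the array. Each mouse gave 1 liver at 1 time, so rhythms were not followed over the day. The mice were males of the strain BKS.Cg-m+/+Leprdb/J, all db/db, that is without functional leptin receptor, which makes them obese and diabetic, and were 6 to 8 weeks old on arrival. The Ctrl group (15 mice) ate chow, and the SA_15% group (15 mice) ate the same chow with sebacic acid, a dicarboxylic acid of medium chain length, at 77.6 g/kg food for 6 weeks, which was 15% of energy and, by the design text, near 9 g per kg of body weight daily. All mice were killed after a short fast. The hour of the day is not given in the sources used here, so a change in the level of a rhythmic transcript and a change in its timing cannot be told apart.

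In the core loop, the activators CLOCK and BMAL1 (encoded by Arntl) bind E-box sequences and switch on the Per and Cry genes, whose proteins feed back on them, and the Nr1d1 and Nr1d2 receptors repress Arntl. The same activators switch on the PAR bZIP factors DBP, TEF and HLF, named for a proline and acidic amino acid-rich region next to their basic leucine zipper. These activate genes with a D-box, a site that the repressor E4BP4, encoded by Nfil3, also binds. In liver the PAR bZIP factors are known for their control of drug- and haem-metabolizing genes.

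Every liver had 1 Illumina MouseRef-8 array, and values are given as log2 signal after quantile normalization. Mean intensity of an array before normalization ranged from 314 to 451 in the Ctrl group and from 327 to 498 in the SA_15% group. Between 10984 and 11783 probes per array were detected, meaning a detection p-value under 0.05 against the negative controls of that array. Of 10 hepatocyte markers 7 were detected, and the probes of Alb, Tat and Fgb were not. A probe was tested if detected on at least 15 of the 30 arrays, which held for 11329 probes. Among the members, 10 probes of 6 genes passed this filter, and the probes of Hlf and Bhlhe41 did not.

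In SA_15% livers 5 of the 6 detected members were lower, no member was higher, and Nfil3 missed the threshold. Differences were tested with limma across the 11329 detected probes and called at a Benjamini-Hochberg adjusted p under 0.05. By this rule 36.6% of all detected probes changed, 17.1% being higher and 19.4% lower. Members and the gene lists below were chosen with earlier results of these data known, so a count beside these shares is a description. Dbp, Tef, Noct and Usp2 fell by 0.36 or more on the log2 scale, a limit set at the fall of Tef after the values were seen, and 2.16% of detected probes fell by as much and passed the test. For no member were the groups fully separated, which held for 0.574% of detected probes. The median log2 difference of the 6 members was -0.42, beside -0.01 over all detected probes. The p-values set the difference between groups against the spread between the 15 mice of a group, which limma moderates across probes. With arrays only centred on their medians, 20.1% of all calls were increases in place of 46.9%, and the same 5 members were again lower. In a bulk liver sample, fewer cells of a type and less RNA per cell cannot be told apart. In the same livers 3 of 9 detected genes on a list for Kupffer cells and macrophages were higher, as were 3 of 8 on a list for sinusoidal endothelium, and none was lower. Before normalization the summed intensity of the macrophage list ran from 796 to 2904 in Ctrl and from 1105 to 3312 in SA_15% livers. Of this list Cd5l was not detected, and no probe was named Cd68 or Csf1r. The sum of the endothelial list ran from 2532 to 5432 and from 2965 to 5626 (Kdr not detected). Mean log2 signal after normalization was 6.64 to 7.88 in Ctrl and 7.07 to 8.06 in SA_15% livers for the macrophage list. For the endothelial list it was 7.88 to 8.29 and 7.99 to 8.42. Of the 7 hepatocyte markers 1 was higher and 3 were lower. Their summed intensities before normalization were 97371 to 131460 in Ctrl and 120141 to 165517 in SA_15% livers. Their mean log2 signal after normalization was 13.71 to 13.98 in Ctrl and 13.66 to 13.90 in SA_15% livers. A sum follows the brightest genes and a mean of log2 signal weighs each gene alike, so these 2 measures are not directly comparable. Of 3 detected red blood cell genes 2 were higher, with sums before normalization of 6480 to 13421 and 11882 to 24936 (no probe named Hbb-b1). Their mean log2 signal after normalization was 9.36 to 9.93 in Ctrl and 9.70 to 10.34 in SA_15% livers. The part of these cells in the differences of the members was not tested.

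**Figure D1:**
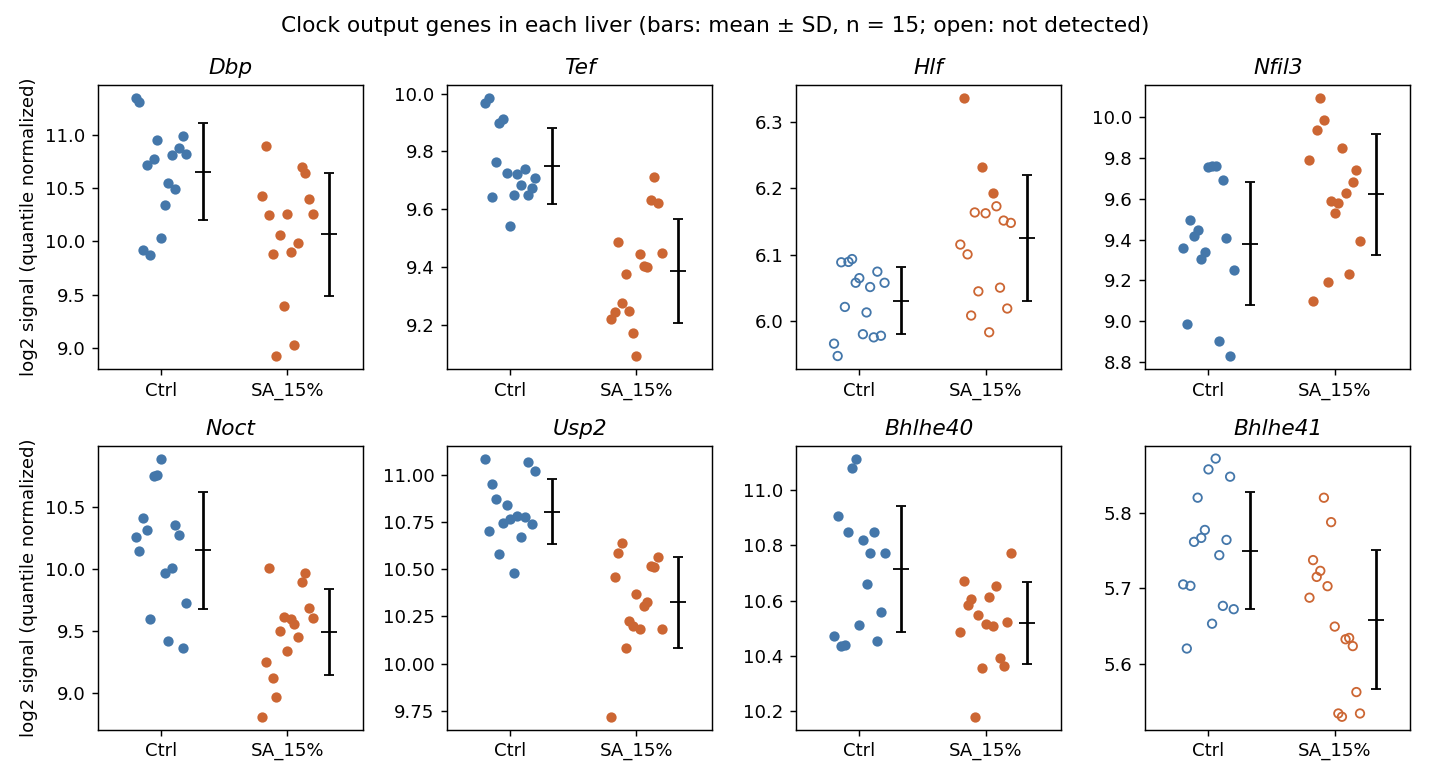
Log2 signal (quantile normalized) of the brightest probe of each gene in every liver, with 15 points per group, mean and SD as bars, and open circles for arrays on which the probe was not detected. All SA_15% livers lay below the Ctrl median for Tef, Noct and Usp2, and the probes of Hlf and Bhlhe41 were near background.

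Dbp, which encodes the founding PAR bZIP factor, was lower in SA_15% livers and varied widely between mice in both groups. Its log2 signal (probe ILMN_2616226, chromosome 7) ranged from 9.87 to 11.35 in Ctrl livers with a median of 10.78, and from 8.92 to 10.89 in SA_15% livers with a median of 10.24. The groups overlapped, with 3 SA_15% livers below the lowest Ctrl liver and 4 Ctrl livers above the highest SA_15% liver. Before normalization the intensity of this probe was 1067 to 3021 in Ctrl livers and 461 to 1646 in SA_15% livers. Dbp fell by 0.59 in log2 signal (standard error, SE, 0.18, limma adjusted p = 0.0089), from a mean of 10.65 ± 0.46 (SD, n = 15) to 10.06 ± 0.58 (SD, n = 15). The Ctrl median was above 14 of the 15 SA_15% livers. The 3 lowest values of all were those of SA_15% livers 5, 10 and 7, and the 2 highest were those of Ctrl livers 1 and 2.

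Tef, the thyrotroph embryonic factor, was lower by less than Dbp but with far less spread. Its brighter probe (ILMN_2676052, chromosome 15) read 9.54 to 9.99 in Ctrl livers with a median of 9.72, and 9.09 to 9.71 in SA_15% livers with a median of 9.40. Every SA_15% liver lay below the Ctrl median, and 12 of 15 lay below the lowest Ctrl liver. The fall was 0.36 (SE 0.06, limma adjusted p = 6.1e-06), a change of the linear signal by -22.3%. A second Tef probe (ILMN_2715400), annotated to another Tef transcript, was dim, with log2 signals of 6.10 to 6.56 in Ctrl and 5.88 to 6.66 in SA_15% livers. It was detected on 11 of 15 arrays of each group and differed by -0.03 (SE 0.06, adjusted p = 0.73). Averaged over both probes Tef fell by 0.20, and this value also passed the test (adjusted p = 6.2e-04).

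The windows just before the start sites of Dbp and Tef, the PAR bZIP genes whose level changed, and of Nfil3, which encodes their antagonist, are shown so that their clock motifs can be compared. Each is the 250 bases before a RefSeq start site (GRCm38.p6), printed 5′ to 3′ on the strand of the gene, with motif matches in capitals. The windows are chr7:45704997-45705246 (plus strand) for Dbp, chr15:81802423-81802672 and chr15:81811164-81811413 (plus strand) for the 2 start sites of Tef, and chr13:52981040-52981289 (minus strand) for Nfil3.
Dbp: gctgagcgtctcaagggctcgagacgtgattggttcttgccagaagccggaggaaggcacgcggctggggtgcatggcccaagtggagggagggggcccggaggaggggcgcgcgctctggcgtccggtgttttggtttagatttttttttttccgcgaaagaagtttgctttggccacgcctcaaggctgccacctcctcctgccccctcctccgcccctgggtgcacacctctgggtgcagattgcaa
Tef, start site 1: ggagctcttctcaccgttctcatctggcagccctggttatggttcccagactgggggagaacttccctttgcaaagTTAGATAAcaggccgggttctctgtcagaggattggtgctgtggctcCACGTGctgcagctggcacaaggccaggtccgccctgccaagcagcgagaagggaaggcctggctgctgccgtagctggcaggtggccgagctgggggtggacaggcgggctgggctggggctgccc
Tef, start site 2: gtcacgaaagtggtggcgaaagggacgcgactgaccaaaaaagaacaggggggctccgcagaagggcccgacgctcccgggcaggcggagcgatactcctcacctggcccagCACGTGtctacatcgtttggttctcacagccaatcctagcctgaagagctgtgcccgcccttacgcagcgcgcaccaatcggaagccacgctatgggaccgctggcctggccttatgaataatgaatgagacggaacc
Nfil3: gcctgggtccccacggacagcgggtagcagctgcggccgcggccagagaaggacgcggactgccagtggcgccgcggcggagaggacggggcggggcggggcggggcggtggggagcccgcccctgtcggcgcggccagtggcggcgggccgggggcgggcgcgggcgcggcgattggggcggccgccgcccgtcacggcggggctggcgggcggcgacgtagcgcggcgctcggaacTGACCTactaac
Motifs searched on both strands were the E-box CACGTG, its variant CACGTT, the D-box written as TTANNTAA, the cAMP response element TGACGTCA and the ROR element core AGGTCA. Both Tef windows held a CACGTG, at positions -127 and -138 from the start site, and the first also held a TTANNTAA at -174. The Nfil3 window held AGGTCA on the opposite strand, at -12. None of the 5 motifs was in this window of Dbp. Of 32851 mouse windows of the same length 6.02% held CACGTG, 5.43% held TTANNTAA and 14.0% held AGGTCA. Of the windows of the other members, that of Bhlhe41 held a CACGTG and that of Hlf a TGACGTCA (1.55% of all windows), those of Noct and Usp2 held none, and none was searched for Bhlhe40. No 2 matches overlapped. A match describes these letters and is not evidence of binding.

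Hlf, the hepatic leukaemia factor, could not be measured on these arrays. Its only probe (ILMN_2759687, chromosome 11) was detected in none of the Ctrl livers and in 3 of 15 SA_15% livers, with log2 signals of 5.95 to 6.09 and 5.98 to 6.34. Of the SA_15% livers 10 lay above the highest Ctrl liver, but with the probe at background in nearly all livers no fold is given. Without the filter on dim probes its difference had a limma adjusted p of 0.023, where 18.9% of all 25697 probes were called.

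Nfil3 was the only detected member with a higher mean in SA_15% livers, and the difference did not pass the test. Its probe (ILMN_2595732, chromosome 13) read 8.83 to 9.76 in Ctrl livers with a median of 9.41, and 9.10 to 10.10 in SA_15% livers with a median of 9.63. The groups overlapped widely, with 11 of 15 SA_15% livers above the Ctrl median and 5 above the highest Ctrl liver. The difference was 0.24 (SE 0.10, limma adjusted p = 0.061). The call depended on the setting, since adjusted p ran from 5.9e-04 with a pooled error to 0.36 with median centring, where the difference was 0.13. Leaving out 1 liver at a time moved the difference between 0.20 and 0.28, and Nfil3 then passed as higher in 7 of 30 fits, those without Ctrl livers 8, 9, 10 or 12 or without SA_15% livers 2, 6 or 12 (adjusted p down to 0.027).

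Noct showed the largest fall among the members, on both of its probes. The gene encodes nocturnin, an enzyme that removes a phosphate from NADP(H) and whose transcript peaks at night in mouse liver. The brighter probe (ILMN_1255422, chromosome 3) read 9.36 to 10.89 in Ctrl livers with a median of 10.25, and 8.81 to 10.01 in SA_15% livers with a median of 9.55. Every SA_15% liver lay below the Ctrl median, and 9 Ctrl livers lay above the highest SA_15% liver. Noct fell by 0.66 (SE 0.14, limma adjusted p = 4.5e-04), a change of the linear signal by -36.6%. The dimmer probe (ILMN_2591440) read 7.89 to 9.39 in Ctrl and 7.32 to 8.25 in SA_15% livers and fell by 0.68 (SE 0.13, adjusted p = 1.3e-04). On this probe the SD was 0.47 in Ctrl and 0.27 in SA_15% livers.

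Usp2, which encodes a ubiquitin-specific protease that acts on clock proteins among others, was lower on all 3 of its probes. The brightest (ILMN_1240264, chromosome 9) read 10.48 to 11.09 in Ctrl livers with a median of 10.78, and 9.72 to 10.64 in SA_15% livers with a median of 10.33. The groups overlapped little, with 13 of 15 Ctrl livers above the highest SA_15% liver and 10 SA_15% livers below the lowest Ctrl liver. Usp2 fell by 0.48 (SE 0.07, limma adjusted p = 4.7e-06), a change of the linear signal by -28.4%. The 2 dim probes, at a log2 signal of 6.49 and 6.67 on average in Ctrl livers, fell by 0.24 (ILMN_2466316, adjusted p = 1.2e-04) and 0.20 (ILMN_2482390, adjusted p = 0.0081). After background correction with neqc these probes fell by 0.49 and 0.38, and the brightest fell by 0.50. Averaged over the 3 probes in uncorrected signal, Usp2 fell by 0.31.

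**Figure D2:**
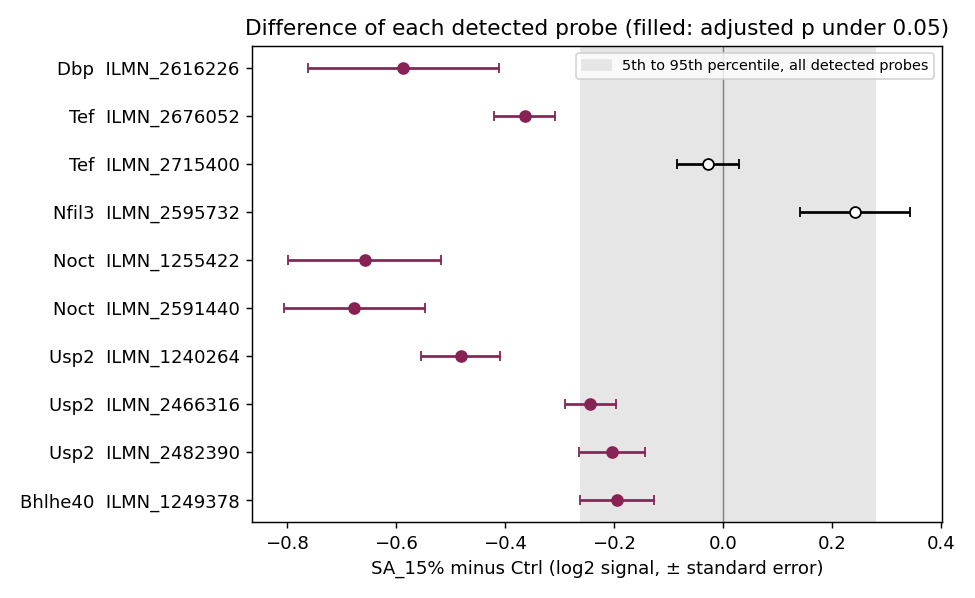
Difference in log2 signal, SA_15% minus Ctrl, for each of the 10 detected probes of the members, with standard error bars and filled points where the adjusted p from limma was under 0.05. The grey band spans the 5th to 95th percentile of all 11329 detected probes, and the probes of Noct and Dbp and the brightest probes of Usp2 and Tef lay outside it on the lower side.

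The partner repressors DEC1 and DEC2, encoded by Bhlhe40 and Bhlhe41, bind E-boxes and oppose CLOCK and BMAL1. Bhlhe40 (probe ILMN_1249378, chromosome 6) read 10.43 to 11.11 in Ctrl livers with a median of 10.77, and 10.18 to 10.77 in SA_15% livers with a median of 10.52. Of the Ctrl livers, 6 lay above every SA_15% liver. The Ctrl median exceeded 14 SA_15% livers and equalled the other, and 4 lay below the lowest Ctrl liver. Bhlhe40 fell by 0.20 (SE 0.07, limma adjusted p = 0.023), the smallest of the 5 falls, and by 0.31 with median centring. The only probe of Bhlhe41 (ILMN_2759227, chromosome 6) was detected in no liver of either group, at log2 signals of 5.62 to 5.87 and 5.53 to 5.82, which does not show that the gene is not expressed. At a raw p below 0.001 and a fold of 1.3 or more, the thresholds of the methods, 3 of the 12 member probes were lower. These were both probes of Noct and the brightest of Usp2, by limma and by one-way ANOVA alike. Of all 25697 probes 1.85% passed by limma and 1.76% by one-way ANOVA, in either direction. The methods took p from a global error assessment instead. With the pooled error that approximates it, Dbp also passed both limits (adjusted p = 3.8e-10, fold 0.67).

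The members differed in how much they varied between mice of 1 group. In Ctrl livers the SD of Dbp was larger than that of 98.8% of detected probes and the SD of Noct than that of 99.0%. The Dbp signal spanned 2.78-fold between the lowest and highest Ctrl liver and 3.92-fold between SA_15% livers. Nfil3 was also widely spread, above 95.2% of probes in Ctrl and 96.1% in SA_15% livers. Tef lay near the middle in Ctrl livers, above 46.0% of probes, and its signal spanned only 1.36-fold there. In SA_15% livers the spread of Tef was above 81.3% of probes and that of Usp2 above 92.7%, in place of 74.0% in Ctrl livers. These positions are descriptions and no difference in spread was tested. The probes ranked include dim ones, with no background subtracted, and the part of brightness in these positions was not tested.

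Livers of the Ctrl group with more Dbp had less Arntl and, by rank, less Nfil3. Dbp and Arntl ran opposite over the 15 mice, with Pearson r = -0.86 (permutation p = 5e-05, adjusted p = 0.001 over 20 relations) and Spearman rho = -0.87 (permutation p = 3e-05, adjusted p = 6e-04). Without the 2 livers farthest from the median of Dbp, r was -0.89. In SA_15% livers r was -0.46 (permutation p = 0.085, adjusted p = 0.16) and rho -0.48 (permutation p = 0.074, adjusted p = 0.16), with r = -0.33 without the 2 farthest livers. The difference between the groups in this relation was not tested. Dbp and Nfil3 gave r = -0.60 in Ctrl livers (permutation p = 0.018, adjusted p = 0.088) and rho = -0.73 (permutation p = 0.0030, adjusted p = 0.030), and r = -0.71 without the 2 farthest livers. In SA_15% livers they gave r = -0.53 (permutation p = 0.043, adjusted p = 0.12) and rho = -0.51 (permutation p = 0.053, adjusted p = 0.13), so the relation passed correction in Ctrl livers by rank alone.

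With the clock repressor genes Per2 and Nr1d1, Dbp ran in the same direction. In SA_15% livers Dbp and Per2 gave r = 0.74 (permutation p = 0.0018, adjusted p = 0.018) and rho = 0.65 (permutation p = 0.0094, adjusted p = 0.056), but r = 0.41 without the 2 livers lowest in Dbp, so the relation rested on them. Dbp and Nr1d1 gave r = 0.68 (permutation p = 0.0057, adjusted p = 0.038) and rho = 0.65 (permutation p = 0.011, adjusted p = 0.056) in SA_15% livers, with r = 0.55 without these livers, and did not pass with median centring (r = 0.64, adjusted p = 0.073). In Ctrl livers the same pairs gave r = 0.32 (permutation p = 0.25, adjusted p = 0.35) and rho = 0.41 (permutation p = 0.13, adjusted p = 0.25) for Per2, and r = 0.46 (permutation p = 0.084, adjusted p = 0.16) and rho = 0.51 (permutation p = 0.052, adjusted p = 0.13) for Nr1d1, with r = 0.33 and 0.54 without the 2 farthest livers. None of the relations of Dbp with Tef, Noct, Usp2, Bhlhe40, Per3 and Nr1d2 passed correction in either group. The lowest adjusted p among them was 0.091, for Per3 in SA_15% livers. For Tef in Ctrl livers r was 0.46 (adjusted p = 0.16 by permutation), and 0.74 without the 2 livers farthest from the median of Dbp. A pair with Hlf, Bhlhe41 or Cry1 was left out because the probe was not detected. The columns do not name the BeadChip of an array, so no value within chips can be given. The permutation tests take the livers of a group as interchangeable. The hour at which each mouse was killed is not given, and same-numbered livers may share something, as described below. The part of either in these relations was not tested.

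**Figure D3:**
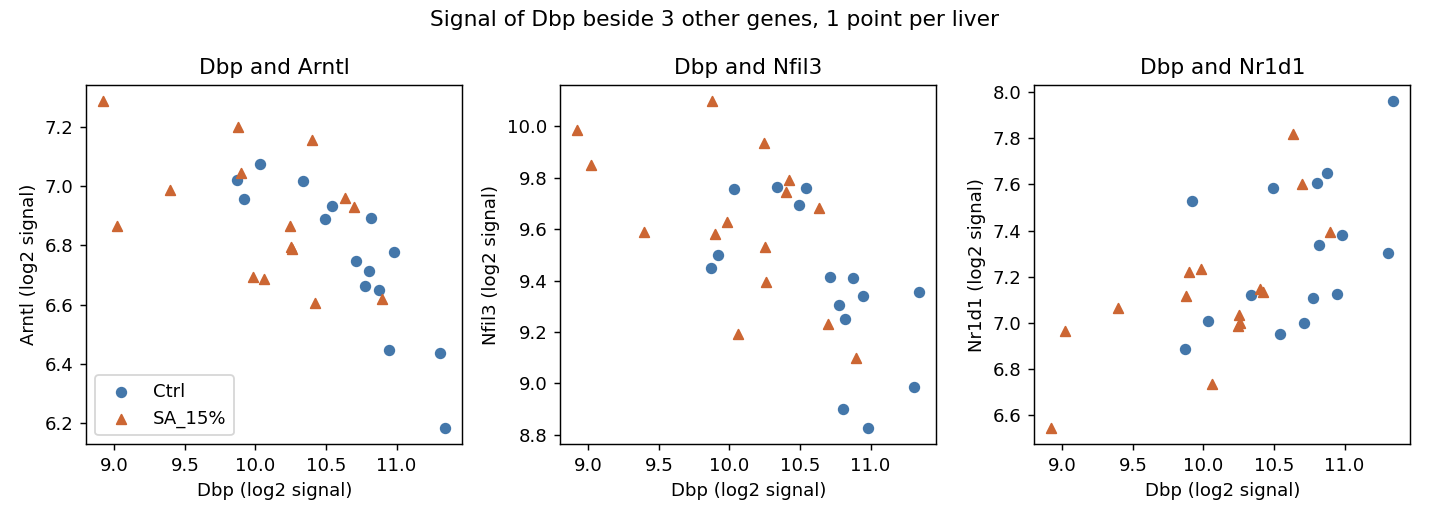
Log2 signal of Dbp on the horizontal axis and of Arntl, Nfil3 and Nr1d1 on the vertical axes, with 1 point per liver, circles for Ctrl and triangles for SA_15%. Arntl and Nfil3 tend to be lower, and Nr1d1 higher, where Dbp is higher. For Arntl r was -0.86 in Ctrl livers and -0.46 in SA_15% livers, where it did not pass correction. For Nfil3 r was -0.60 and -0.53, and the relation passed correction in Ctrl livers by rank alone. For Nr1d1 r was 0.46 in Ctrl livers, where it did not pass. In SA_15% livers r was 0.68, and the relation passed correction by r but not by rank or with median centring.

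Each member had other genes whose signal ran with it from liver to liver. Likeness is Pearson's r over all 30 livers after the group means were subtracted, among 7905 detected genes, and the top genes are picked from so many that r is a description only. The genes most like Dbp were Lrtm1 (r = 0.70), the retinoic acid receptor gene Rarb (0.66) and the sterol transporter gene Abcg5 (0.65). Of these Lrtm1 also fell in SA_15% livers, by 0.38, while Abcg5 rose by 0.28 (adjusted p = 0.015 from limma). Nfil3 ran with the phosphatase gene Ppm1d (r = 0.74), the mTOR inhibitor gene Deptor (0.74) and the pyruvate dehydrogenase kinase gene Pdk4 (0.73). Pdk4 rose by 0.72 in SA_15% livers (limma adjusted p = 2.7e-04), while Ppm1d and Deptor did not pass the test. Usp2 was most like Ciart, a repressor of the core clock (r = 0.70), followed by the lipase inhibitor gene G0s2 (0.68) and the potassium channel gene Kcnk5 (0.62). Ciart and Kcnk5 were lower in SA_15% livers, whereas G0s2 rose by 0.41. Noct was most like Coq10b (r = 0.69), Narf (0.67) and the prolyl hydroxylase gene P4ha1 (0.64), all 3 of which were lower. Bhlhe40 was most like Ttc23 (r = 0.70), Mid1ip1 (0.68), known for its part in fatty acid synthesis, and Naa35 (0.63), all lower as well. The top genes of Tef had lower values of r, with Nanos2 at r = 0.60, Mon1a at 0.59 and the glycine methyltransferase gene Gnmt at 0.59. Mon1a and Gnmt were lower in SA_15% livers, and Nanos2 did not pass the test. With Nanos2, r was 0.78 in SA_15% livers and 0.26 in Ctrl livers, a difference that was not tested.

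In the core loop the Per genes, Cry2 and Nr1d2, all on the repressor side, were lower in SA_15% livers, and the repressor gene Nr1d1 did not pass the test (-0.17, limma adjusted p = 0.21). Of 9 detected core clock genes, 5 fell, 4 missed the threshold and no gene rose. Of all detected probes 19.4% were lower and 17.1% higher. The median difference of the core clock genes was -0.31, beside -0.01 over all detected probes. Cry2 fell by 0.31, Nr1d2 by 0.41, Per3 by 0.37, Per1 by 0.32 and Per2 by 0.43, and for each of them all 15 SA_15% livers lay below the Ctrl median. For Per3 the fall was 0.65 after background correction. The activator genes Arntl and Clock differed by 0.14 (adjusted p = 0.18 from limma) and 0.11 (adjusted p = 0.24), and did not pass with neqc (0.23 for Arntl) or with median centring (0.0029 for Clock) either. Among 9 detected kinases, phosphatases and ubiquitin ligases of clock proteins 2 were higher and 2 lower, beside 17.1% and 19.4% of all detected probes, and with median centring 4 were lower and none higher. Btrc, a ubiquitin ligase subunit that acts on PER proteins, fell by 0.15 and the kinase gene Gsk3b by 0.16. The casein kinase genes Csnk1d and Csnk1e rose by 0.18 and 0.17, and neither was called with median centring (adjusted p = 0.25 for both).

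Among 8 detected targets of the PAR bZIP factors and E4BP4, 2 rose, 2 fell and 4 missed the threshold, beside 17.1% higher and 19.4% lower among all detected probes, with a median difference of -0.09. Alas1, the first enzyme of haem synthesis, fell by 0.50 (SE 0.08, limma adjusted p = 1.2e-05), and no SA_15% liver reached the median of Ctrl livers. The cytochrome P450 gene Cyp2b10 fell by 0.78 (SE 0.20, adjusted p = 0.0032). Cyp2a5, another cytochrome P450 gene, rose by 0.21, but not with median centring (0.15, adjusted p = 0.093). Fgf21, a hormone gene that E4BP4 can repress, rose by 0.97 (SE 0.19, adjusted p = 2.3e-04), from 7.15 to 8.43 over Ctrl livers to 7.58 to 10.46 over SA_15% livers. The receptor gene Nr1i3 differed by 0.08 (limma adjusted p = 0.40), and by -0.03 with median centring. Probes of the Cyp2a and Cyp2b families can bind near-identical paralogs.

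Among 10 other detected genes with a daily rhythm in liver, 6 fell, 1 rose and 3 missed the threshold. Of all detected probes 19.4% were lower and 17.1% higher. The list was chosen with earlier results of these data known, so its count beside these shares is a description. Its median difference was -0.21. Tsc22d3, a glucocorticoid-induced gene, fell by 0.47 (SE 0.07, limma adjusted p = 1.1e-05), Mfsd2a, a lysolipid transporter gene, by 0.37 and Ciart by 0.34. Rgs16, a regulator of G protein signalling that varies with feeding, fell by 1.43 (SE 0.24, adjusted p = 2.1e-05), from a Ctrl median of 11.40 to an SA_15% median of 9.97. Insig2, named after its values were seen, was the one higher gene, by 0.32, and lost the call with median centring (adjusted p = 0.22). Of these genes 4 in place of 7 were called with no filter on dim probes, and 5 to 9 without 1 liver.

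**Figure D4:**
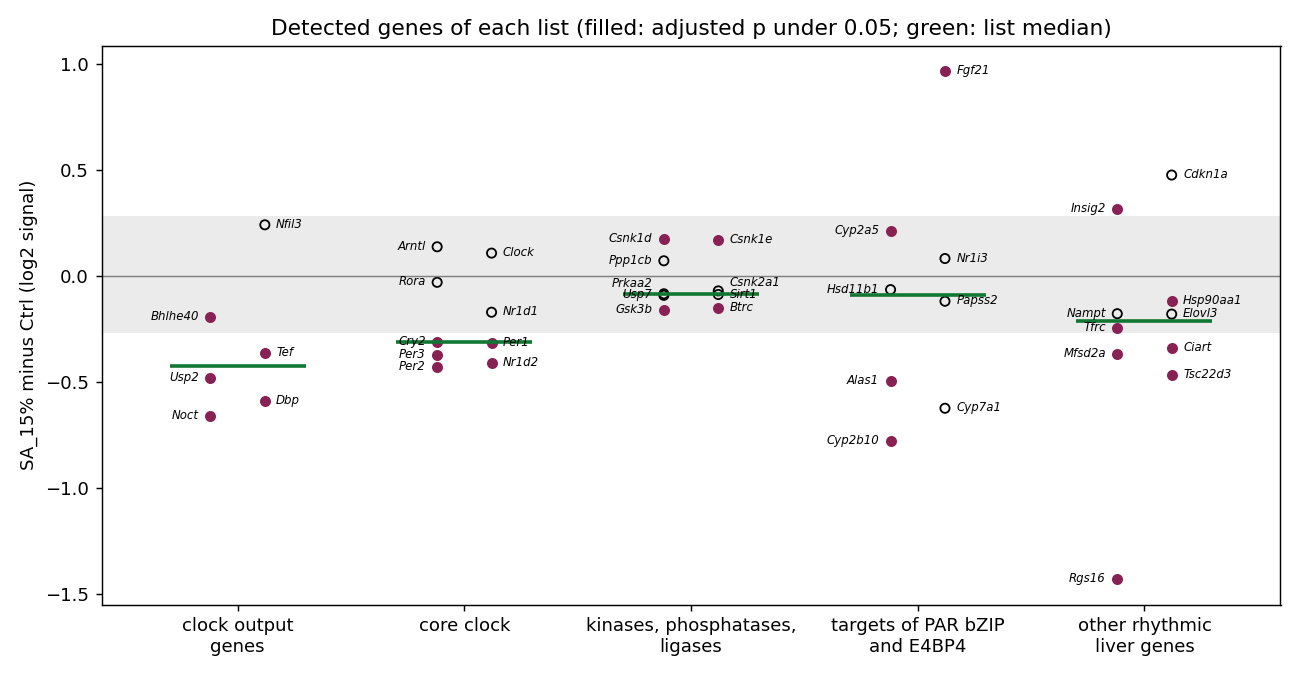
Difference in log2 signal, SA_15% minus Ctrl, of every detected gene in 5 groups of genes, with filled points where the adjusted p from limma was under 0.05 and green lines at the medians. The grey band spans the 5th to 95th percentile of all detected probes, and the medians were -0.42 for the clock output genes, -0.31 for the core clock and -0.09 for the targets of PAR bZIP factors and E4BP4.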

How the data were processed

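Liver RNA of 15 Ctrl and 15 SA_15% mice was measured on 1 array each, and a lower-dose group of the study was not analysed here. For every probe the authors deposited the average bead signal as a raw intensity with its detection p-value, and no background was subtracted. Signals were extracted with Illumina software (GenomeStudio 2009.2 in the submitters' processing notes). A second table deposited by the authors holds normalized intensities of the same arrays on a linear scale (column medians 67.9 to 68.0) and served as an alternative. Every column was assigned to a sample.

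Intensities were quantile normalized and log2 transformed as in the methods, and tested with limma 3.58.1 in R 4.3.3 (lmFit and eBayes, SA_15% minus Ctrl, no covariates). Limma stands in for the ANOVA with a global error assessment, which was approximated as a pooled error over the 201 probes nearest in mean signal. Probes not detected on at least 15 arrays were left out, and p-values were adjusted over the 11329 others. A gene with several detected probes is given by the brightest, its other probes beside it. Symbols of the platform annotation were updated through Entrez identifiers to RefSeq (GRCm38.p6): 23978 probes had 1 symbol, of which 23962 matched, and 1719 had none. Relations between genes used permutation tests (two-sided, 100000 resamples, numpy 2.4.6) over 15 livers, adjusted over 20 relations. Promoter windows came from RefSeq and held 7 of the 8 members. Within a group, 2 arrays correlated at 0.987 to 0.996, and no array was a duplicate. The number of arrays limits the precision. The code was tested on simulated data.

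The named genes are all 8 members, up to 4 genes of each list with the smallest p, the genes of the relations with Dbp, and the 3 genes most like each member; Clock, Nr1i3 and Insig2 were added after their values were seen. Members and lists were chosen with earlier results of these data known. Alternatives were background correction with neqc (offset 16), median centring, the second table, other filters, the one-way ANOVA of the methods, a pooled error, array weights, a replicate block, the mean over probes and leaving out each liver.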

Additional observations from a re-analysis of the deposited data

How the results depend on the processing

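The falls of Dbp, Tef, Noct, Usp2 and Bhlhe40 kept their direction and stayed past the threshold under all 10 alternatives and in all 30 fits that left out 1 liver, with adjusted p up to 0.017 for Dbp, 6.3e-04 for Tef, 0.0013 for Noct, 3.1e-05 for Usp2 and 0.041 for Bhlhe40. Nfil3 (0.24 in all 3 fits) was called higher under the pooled error (adjusted p = 5.9e-04) and with the replicate number as a block (adjusted p = 0.035), and without 1 liver it ran from 0.20 to 0.28. Same-numbered livers of the 2 groups come from different mice, and no label gives them a shared source, so they were not treated as pairs. Their deviations correlated at -0.07 to 0.39 over 15 pairs (median 0.16, 10 of them above 0.1), and 10 of 30 livers correlated best with their own number, a hint from the data that same-numbered livers share something. The block gave 4459 calls in place of 4141 and changed no other call of a member. Tested with no filter on dim probes, Hlf differed by 0.095 (adjusted p = 0.023) and Bhlhe41 by -0.091 (adjusted p = 0.046), both at background, and 4 in place of 7 of the other rhythmic genes were called, more probes being tested. At the thresholds of the methods 475 probes were called with limma and 452 with the one-way ANOVA. With median centring, Dbp and Nr1d1 in SA_15% livers gave r = 0.64 (adjusted p = 0.073), and Dbp and Noct in Ctrl livers r = 0.089 in place of -0.03. Of all results and alternatives, 487 comparisons kept their side of the threshold and direction, or stayed within 1.5 times for counts. Of the others, 11 passed only in the alternative, 1 passed only in the main setting, 1 changed direction and 3 counts moved further. Hlf and Bhlhe41 had values in no other alternative. Dim probes limit what can be said of Hlf, Bhlhe41 and the second Tef probe.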
